A study of Mus musculus with 4 samples.

Results

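The genes described here are those of the mouse ion channels for potassium, calcium, sodium and chloride, of the hyperpolarization-activated channels and of the transient receptor potential (TRP) channels. They were taken by gene symbol from the platform annotation. The symbols were those that begin with Kcn, Scn, Cacna, Cacnb, Cacng, Hcn, Clcn, Clic, Trpc, Trpm or Trpv, and Trpa1. This pattern holds no measured value, but it was chosen with earlier results of these data known. The pattern matched 141 of 23473 probes, 1 probe for each of 141 genes, and it also took in accessory subunits and 1 gene, Trpc4ap, whose product binds a channel but is none. The cells were NSCL61, a mouse glioma-initiating line derived from newborn C57BL6 brain neural stem cells that lack p53 and carry an activated HRas. The groups compared held 2 arrays each. The control arrays are titled with the name of the line alone, and the series title speaks of a control hairpin. The other arrays are titled as carrying a short hairpin RNA (shRNA) against Eva1, the older name of the adhesion protein gene Mpzl2. Per the labels' protocols, transformants were kept under hygromycin before RNA was taken. All 4 arrays came from 1 cell line, and no source says that the arrays of a group were separate cultures. The p-values therefore measure only the spread between these arrays, which may be technical.

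Ion channels are pores in the membrane that open and close to let particular ions pass. Potassium channels set the resting potential, voltage-gated sodium and calcium channels carry electrical signals and calcium entry, chloride channels serve volume control and the acidification of organelles, and TRP channels are mostly cation channels that respond to stretch, temperature or messenger molecules. Most pores are built from pore-forming alpha subunits joined by accessory subunits that alter gating or surface delivery. In glioma cells potassium and chloride channels are known for their part in volume change during migration and division.

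A total of 104 of the 141 genes had a value on all 4 arrays and were tested. Of these, 5 were higher and 15 lower in the Eva1 shRNA cells (limma, two-sided, adjusted p under 0.05 over all genes tested), and 84 did not pass. The potassium channel accessory subunit gene Kcnmb4 had the largest rise at 14.6-fold, and the voltage-gated potassium channel genes Kcnh2 and Kcnq1 had the largest falls at 7.47-fold and 6.86-fold. The 5 that rose were Kcnmb4, Kcnk13, Kcnf1, Kcnn4 and Trpv4. The 15 that fell were Kcnh2, Kcnq1, Kcnab3, Cacna2d3, Kcnj12, Kcnk6, Trpm4, Kcnab1, Cacnb4, Kcnq5, Cacnb3, Trpc1, Kcnk18, Cacnb1 and Clcn3.

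These counts are to be read against all 13765 genes tested, of which 26.0% passed, 12.5% higher and 13.5% lower. Among the channel genes 19.2% passed, 4.81% higher and 14.4% lower. The share of lower calls was thus close to that of all genes and the share of higher calls was below it, a difference that was not tested. The median log2 change was -0.01 for the channel genes and -0.01 for all genes. At a distance of at least 2-fold, 14 channel genes passed (4 higher, 10 lower) of 104, against 11.6% of all genes. The arrays of the groups did not overlap for 58 of the 104 genes, or 55.8%, against 66.7% of all genes. With the scaling between arrays left as deposited, 9 channel genes were higher and 13 lower, so that 40.9% of the calls were rises in place of 25%. That scaling moved the median change of all genes to 0.18, and their share of rises among calls from 48.1% to 67.7%. Leaving out 1 array at a time left 1 array in a group. Without control array 1 or 2 the median log2 change of the channel genes was 0.02 or -0.08 (all genes -0.001 or -0.03). Without Eva1 shRNA array 1 or 2 it was -0.08 or 0.01 (all genes -0.01 for either). In these fits the share of channel genes passing was not below that of all genes, so the order of the shares depends on the fit. Log2 changes were taken after quantile normalization, so a small one can differ in sign from the deposited intensities printed beside it.

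**Figure D1:**
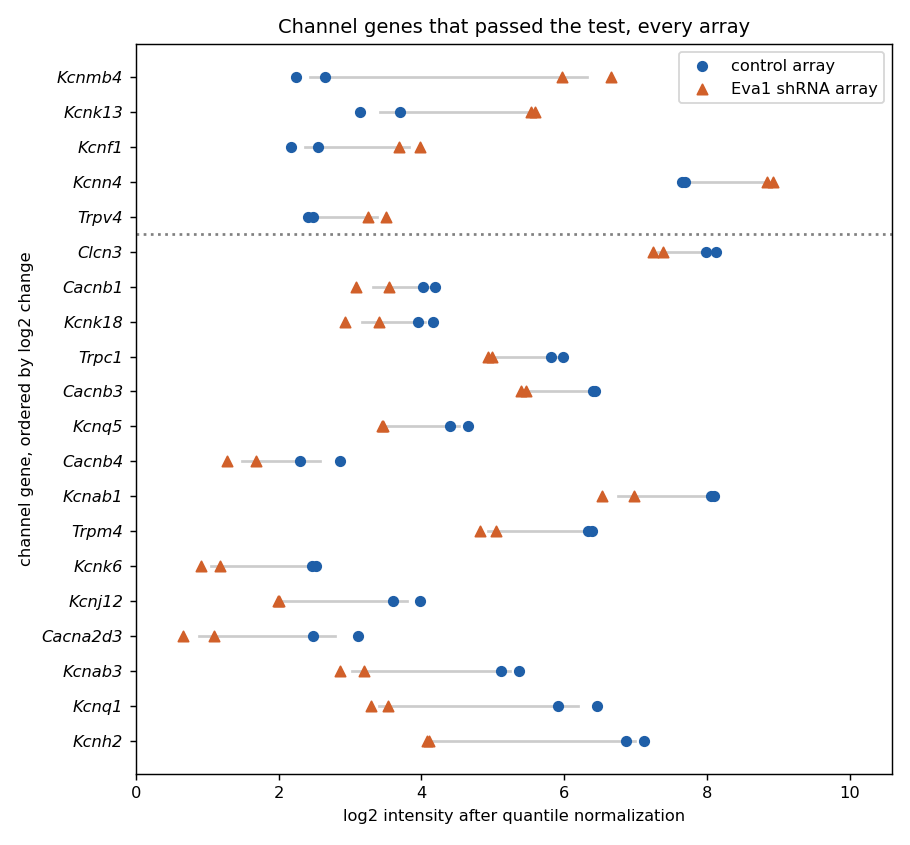
Normalized log2 intensity of the 20 channel genes that passed the test, on each of the 4 arrays (circles, 2 control arrays; triangles, 2 Eva1 shRNA arrays; grey lines join the group means), with rises above the dotted line and falls below it. The arrays of the groups do not overlap for any of the 20 genes, which is no further result because the genes were picked by the test on these arrays. Kcnmb4 and Kcnh2 have the longest lines.

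Most channel probes were dim in this line. The deposited intensities had a median near 25 on every array. Brightness also depends on the probe, so counts of dim probes and the choice of a family's brightest probe describe signal on the array and do not rank transcript levels between genes. Of the 104 genes tested, 18 (17.3%) had a mean normalized level above the median of all genes, and 74 had both group means at or below 25 intensity units. Among the 18 brighter genes 6 passed (33.3%), against 31.3% of all genes above that median. Among the other 86, 14 passed (16.3%), against 20.6% of all genes below it. Probes that were blank on some arrays mostly read under 4.71 units where they were filled (their 95th percentile), and a group mean in that range leaves the size of a fold change unsettled. Adding 16 intensity units before taking log2 damps such changes. With them added, 8 of the 104 channel genes passed with a log2 change of at least 1 in size, in place of 14. They were Kcnmb4, Kcnk13 and Kcnn4 as rises and Kcnh2, Kcnq1, Kcnab1, Kcnab3 and Trpm4 as falls. Of all 13765 genes 872 passed at that size with 16 units added, in place of 1594, so the drop was not particular to channel genes.

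**Figure D2:**
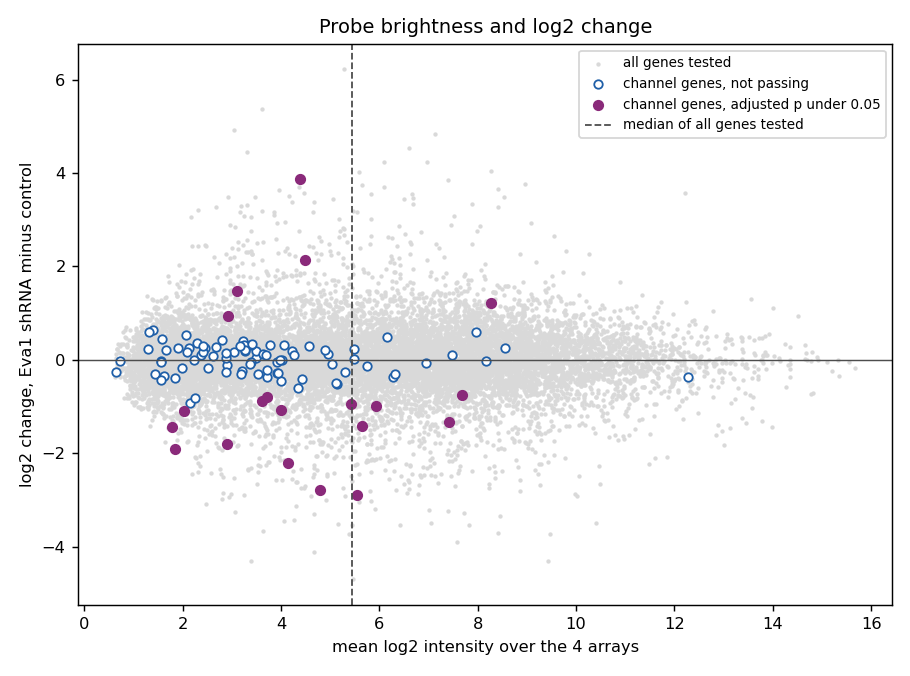
Log2 change (Eva1 shRNA minus control) against mean log2 intensity over the 4 arrays for all 13765 genes (grey), for the 84 channel genes that did not pass (open circles) and for the 20 that passed (filled circles), with the median of all genes as a dashed line. Most channel genes lie left of the dashed line, where 86 of 104 are found.

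The targeted gene was checked first. Mpzl2 read 55.0 and 54.4 intensity units in control and 8.20 and 6.21 in Eva1 shRNA cells (log2 change -3.12, standard error 0.16, adjusted p = 0.00105, or -1.71 with 16 units added). Both arrays titled as carrying the hairpin were below both control arrays. The correlation over probes was 0.991 and 0.993 between replicate arrays and 0.964 to 0.970 between groups. Neural stem cell markers were present: Nes, an intermediate filament of neural progenitors, read 532 and 537 in control and 435 and 430 in Eva1 shRNA cells. Of 9 tested markers of that list 3 fell (Fabp7, Id1 and Sox9) and 0 rose, so that 33.3% passed against 26.0% of all genes. At an unadjusted p under 0.05 in limma's test 4 were lower and 0 higher. The falls of this list numbered 2 with Eva1 shRNA array 1 left out and 1 with Eva1 shRNA array 2 left out. The summed intensity of the list was 18398 and 17125 in control and 27438 and 21519 in Eva1 shRNA cells, and without Vim, an intermediate filament that did not pass (log2 change 0.33), it was 1989 and 1793 against 1352 and 1252. Prom1, a surface marker of stem cells, read 3.25 and blank against 11.8 and 9.76.

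Among markers of excitable cells, 25% of the tested neuron list and 12.5% of the tested muscle list passed, against 26.0% of all genes. Of 9 neuron markers with a probe, 8 were tested. Nefl, a neurofilament subunit, fell by 2.49 on the log2 scale, Tubb3, a neuronal tubulin, rose by 0.84 and 6 did not pass. Without control array 1, and likewise without Eva1 shRNA array 2, no neuron marker rose. The summed intensity of the neuron list was 2426 and 2610 in control and 591 and 610 in Eva1 shRNA cells, and without Nefl it was 81.9 and 85.3 against 112 and 132. Of 8 tested muscle markers, Tnnt2, a troponin gene, fell by 1.62, and the summed intensity of the list without Tnnt2 was 43.4 and 40.8 in control and 49.8 and 48.2 in Eva1 shRNA cells.

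Among glial markers, 33.3% of 3 tested in the astrocyte list and 40% of 5 tested in the oligodendrocyte lineage list passed, against 26.0% of all genes. Of 8 astrocyte markers 3 were tested and 1 fell, Aldoc, a glycolytic enzyme of astrocytes, from 604 and 663 to 232 and 152 (log2 change -1.92, adjusted p = 0.00445). The summed intensity of that list was 634 and 694 in control and 275 and 188 in Eva1 shRNA cells, and without Aldoc 30.6 and 31.3 against 42.8 and 36.2. The defining astrocyte marker Gfap was blank on 1 array of each group and read under 3 units on the others. Of 5 tested markers of the oligodendrocyte lineage 2 fell, Pdgfra, a growth factor receptor of its precursors, by 1.66 (adjusted p = 0.0029) and Cnp, a myelin enzyme, by 1.06 (adjusted p = 0.00909), and the summed intensity was 213 and 209 against 135 and 138. With Eva1 shRNA array 1 left out only 1 marker of that lineage fell. The part of all these markers in the changes of channel genes was not tested.

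Voltage-gated potassium channels open on depolarization and return the membrane towards rest. Of 31 alpha-subunit genes of this kind, 22 were tested, 1 rose, 3 fell and 18 did not pass. Kcnh2, which encodes the hERG channel that ends the cardiac action potential, read 108 and 131 intensity units in control and 18.7 and 18.0 in Eva1 shRNA cells. The Eva1 shRNA arrays were alike and far below both control arrays. The mean intensity of Kcnh2 was 120 ± 15.9 and 18.4 ± 0.483 (SD, n = 2 each), and the log2 change was -2.90 (standard error 0.16, adjusted p = 0.00105). With 16 units added it was -2.12. Kcnq1, the pore of a slow repolarizing current in heart and of potassium recycling in epithelia, read 55.9 and 83.6 in control and 12.9 and 10.4 in Eva1 shRNA cells. The control arrays of Kcnq1 differed from each other, yet both were far above the Eva1 shRNA arrays. Its log2 change was -2.78 (standard error 0.23, adjusted p = 0.0021), or -1.74 with 16 units added.

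The related gene Kcnq5, which encodes a subunit of the neuronal M-current, read 22.8 and 20.2 in control and 12.4 and 11.4 in Eva1 shRNA cells. Its log2 change was -1.07 (standard error 0.15, adjusted p = 0.0081) and -0.53 with 16 units added. The call was lost without either Eva1 shRNA array, at adjusted p = 0.0529 and 0.0535. Kcnq3, another M-current subunit gene, did not pass, with a log2 change of 0.10. Kcnf1, a silent subunit that forms no channel of its own and modifies others of the voltage-gated group, read 4.04 and 5.71 in control and 17.6 and 13.5 in Eva1 shRNA cells. It was the 1 gene of the family that rose, with a log2 change of 1.46 (standard error 0.20, adjusted p = 0.00701). With 16 units added the change was 0.52. The brightest probe of the family was that of Kcna7, a Shaker-related channel gene, at 82.0 and 83.1 in control and 85.4 and 69.2 in Eva1 shRNA cells. Kcna7 did not pass, with a log2 change of -0.30 and a 95% interval from -0.68 to 0.08. Kcna4 had a log2 change of -0.82 without passing (adjusted p = 0.0569). The 18 genes that did not pass ranged from -0.92 (Kcna3) to 0.42 (Kcnc1).

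Accessory potassium channel subunits held the largest rise of all channel genes. Of 14 genes, 12 were tested, 1 rose, 2 fell and 9 did not pass. Kcnmb4 encodes the beta-4 subunit of the large-conductance calcium-activated potassium (BK) channel, the form known from neurons. It read 5.61 and 4.63 intensity units in control and 110 and 65.9 in Eva1 shRNA cells. Both control arrays were near the dim end, and the Eva1 shRNA arrays, though unlike each other, stood well above the array median. The normalized log2 level went from 2.45 ± 0.29 to 6.32 ± 0.48 (SD, n = 2 each), a change of 3.87 with a standard error of 0.28 (adjusted p = 0.00145). That was rank 17 by size among all genes tested, and with 16 units added the change was 2.16. Its pore partner Kcnma1, the BK alpha subunit gene, was blank in control and read 1.66 and 1.48 in Eva1 shRNA cells, where the lowest values of any probe were 1.19 and 1.22. The other BK beta subunit genes did not pass: Kcnmb1 had a log2 change of -0.60 (adjusted p = 0.0614) and Kcnmb2 of -0.35.

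Of the 3 beta subunit genes of Shaker-type channels, Kcnab1 and Kcnab3 fell. They encode oxidoreductase-like proteins that bind the inner face of these channels. Kcnab1 read 257 and 253 intensity units in control and 102 and 132 in Eva1 shRNA cells, a log2 change of -1.32 (standard error 0.19, adjusted p = 0.00814). Its probe was the brightest of the accessory family, and with 16 units added the change was -1.20. Kcnab3 read 31.7 and 39.3 in control and 8.08 and 9.75 in Eva1 shRNA cells, a log2 change of -2.21 (standard error 0.18, adjusted p = 0.00219) that was -1.15 with 16 units added. The remaining gene, Kcnab2, read 56.0 and 50.0 against 55.7 and 53.0 and did not pass, with a log2 change of -0.14 and a 95% interval from -0.51 to 0.24. The Kcne1 and Kcne2 genes, whose small proteins are known partners of the Kcnq1 and Kcnh2 pores, had log2 changes of 0.26 and 0.24 at intensities of 3.08 to 6.32, and did not pass.

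The stretches of genome just upstream of annotated starts are shown for Kcnmb4, Kcnk13 and Kcnh2, the largest rises and the largest fall among the channel genes with a window in the RefSeq table used. Each is 250 bases on the gene's own strand, 5′ to 3′, from the mouse build GRCm38.p6: chr10:116473524-116473773 (minus strand) for Kcnmb4, chr12:99964249-99964498 (plus strand) for Kcnk13 and chr5:24329592-24329841 (minus strand) for Kcnh2. Capitals mark the GC box GGGCGG, the core of the site bound by the general activator Sp1, on either strand.
Kcnmb4: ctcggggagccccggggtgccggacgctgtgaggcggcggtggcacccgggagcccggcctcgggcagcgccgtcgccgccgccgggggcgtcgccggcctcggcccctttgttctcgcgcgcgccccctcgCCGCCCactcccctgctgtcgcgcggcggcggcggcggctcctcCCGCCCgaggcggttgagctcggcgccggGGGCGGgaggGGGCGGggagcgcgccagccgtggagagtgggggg
Kcnk13: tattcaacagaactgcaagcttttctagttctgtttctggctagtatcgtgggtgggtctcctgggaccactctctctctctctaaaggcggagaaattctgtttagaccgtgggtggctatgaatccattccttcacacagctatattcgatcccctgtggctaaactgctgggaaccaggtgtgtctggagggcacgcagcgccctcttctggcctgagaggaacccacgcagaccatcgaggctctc
Kcnh2: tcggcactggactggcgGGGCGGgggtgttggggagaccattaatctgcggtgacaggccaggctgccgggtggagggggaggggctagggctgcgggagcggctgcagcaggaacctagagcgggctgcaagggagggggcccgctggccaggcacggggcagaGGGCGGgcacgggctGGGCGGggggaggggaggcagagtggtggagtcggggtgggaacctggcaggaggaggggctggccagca

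The Kcnmb4 window held 4 GC boxes and 43 CG pairs, the Kcnh2 window 3 GC boxes and 14 CG pairs, and the Kcnk13 window 0 GC boxes and 8 CG pairs. The TATA box letters TATAAA, which overlap no GC box, were in none of the 3 windows on either strand. Of 32851 windows of this length, 32.7% held a GC box and 12.4% the TATA letters. Windows were found for 113 of the 141 channel genes; of their 152 windows 42.1% held a GC box and 5.92% the TATA letters, and of the 24 windows of 16 called genes 45.8% held a GC box and 0 the TATA letters. The gene that rose most and the gene that fell most thus both had GC boxes, and a match is a description of letters only.

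Two-pore-domain potassium channels carry the leak current that sets the resting potential. All 11 genes were tested, 1 rose, 2 fell and 8 did not pass. Kcnk13, which encodes the THIK-1 channel known from microglia, read 11.7 and 8.47 intensity units in control and 52.4 and 48.2 in Eva1 shRNA cells. Both Eva1 shRNA arrays were above the array median and both control arrays below it. The normalized log2 level went from 3.42 ± 0.40 to 5.56 ± 0.04 (SD, n = 2 each), a change of 2.14 with a standard error of 0.22 (adjusted p = 0.00353), or 1.24 with 16 units added. The microglial markers Aif1, Csf1r and Cx3cr1 did not pass, with log2 changes of -0.09, 0.25 and 0.54, Ptprc was blank in control and read 1.39 and 1.74 in Eva1 shRNA cells, and Itgam read 1.91 and 2.48 in control and was blank in Eva1 shRNA cells. The summed deposited intensity of the 8 microglia and endothelial markers, blank cells left out, was 78.9 and 84.4 in control and 107 and 90.1 in Eva1 shRNA cells. Without Csf1r, the brightest, it was 44.9 and 46.4 against 53.9 and 45.7, so that the groups overlapped. The part of these markers in the Kcnk13 result was not tested.

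Kcnk6, the TWIK-2 channel gene, read 5.15 and 5.40 in control and 1.96 and 2.29 in Eva1 shRNA cells. Its log2 change of -1.45 (standard error 0.16, adjusted p = 0.00403) rests on Eva1 shRNA intensities under 4.71 units, and with 16 units added it was -0.26 and the call was lost (adjusted p = 0.0502). Kcnk18, the TRESK channel gene known from sensory neurons, fell by 0.89 on the log2 scale (adjusted p = 0.0325), or by 0.38 with 16 units added. That call was lost without control array 1 (adjusted p = 0.0854), control array 2 (0.112) or Eva1 shRNA array 2 (0.13), with the deposited scaling (0.0961) and with blank cells filled (0.0902). The brightest probe of the family was that of Kcnk5, the TASK-2 channel gene, at 165 and 158 in control and 191 and 204 in Eva1 shRNA cells. Kcnk5 did not pass, and its log2 change of 0.11 had a 95% interval from -0.25 to 0.48.

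Calcium-activated potassium channels were led by Kcnn4. This gene encodes the intermediate-conductance channel KCa3.1, which opens when calmodulin on its tail binds calcium and is known from glioma cells and activated lymphocytes. It read 193 and 190 intensity units in control and 533 and 474 in Eva1 shRNA cells. The group means were 191 ± 1.91 and 504 ± 41.8 (SD, n = 2 each), and every array was well above the array median. The log2 change was 1.22 (standard error 0.14, adjusted p = 0.00446), and 1.16 with 16 units added. Of 8 genes of this family 7 were tested, 1 rose, 0 fell and 6 did not pass; at an unadjusted p under 0.05 also 1 was higher and 0 were lower. The small-conductance relatives Kcnn1, Kcnn2 and Kcnn3 had log2 changes of 0.24, 0.53 and 0.18 without passing. Of the calmodulin genes, Calm2 had a log2 change of -0.07 and did not pass.

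Inward rectifiers pass potassium more readily into the cell than out of it. Only 7 of 12 genes had a value on all 4 arrays; 1 fell, 0 rose and 6 did not pass, with 1 lower and 0 higher at an unadjusted p under 0.05. Kcnj12, the Kir2.2 channel gene, read 10.8 and 15.2 in control and 4.44 and 4.10 in Eva1 shRNA cells, a log2 change of -1.80 (standard error 0.18, adjusted p = 0.00328). Its Eva1 shRNA mean was under 4.71 units, and with 16 units added the change was -0.58. Kcnj9, whose probe was the brightest of the family, had a log2 change of -0.38 and did not pass. Kcnj10, the glial channel of mature astrocytes, was blank on 1 array of each group and read 2.05 and 1.97 on the others.

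Voltage-gated calcium channels consist of a pore and several accessory subunits. Of 11 tested genes for the alpha-2-delta, beta and gamma subunits, 4 fell, 0 rose and 7 did not pass, and at an unadjusted p under 0.05 there were 4 lower and 1 higher. Of 6 tested genes for the pore-forming alpha-1 subunits 0 passed, and 0 had an unadjusted p under 0.05. The shares passing were 36.4% and 0%, against 26.0% of all genes. All 6 alpha-1 genes were below the median level of all genes, where 20.6% of all genes passed. The difference between these families was not tested. Over all channels, 7 of 25 tested accessory or associated genes passed (28%) and 13 of the 79 other tested members (16.5%), against the 26.0% of all genes.

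The beta subunits carry the pore to the membrane from the inside. Cacnb3 read 79.4 and 79.8 intensity units in control and 46.1 and 46.0 in Eva1 shRNA cells, with both pairs nearly equal. Its log2 change was -0.98 (standard error 0.14, adjusted p = 0.00741), which was -0.78 with 16 units added. Without Eva1 shRNA array 1 it was -0.95 and the call was lost. Cacnb4 read 6.44 and 4.81 against 2.63 and 3.33, a log2 change of -1.10 (adjusted p = 0.0304). With 16 units added it was -0.23 and not called (adjusted p = 0.104), nor was it with blank cells filled (0.0971) or without control array 1 (0.102), Eva1 shRNA array 1 (0.139) or Eva1 shRNA array 2 (0.0646). Cacnb1 fell by 0.79 (adjusted p = 0.0409), or by 0.35 with 16 units added, and lost its call with the deposited scaling (0.109), with blank cells filled (0.101), over probes (0.0507) and without control array 1 (0.146), control array 2 (0.088), Eva1 shRNA array 1 (0.0543) or Eva1 shRNA array 2 (0.163). Cacnb2 had a log2 change of -0.05 and did not pass.

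The alpha-2-delta subunits sit outside the membrane. Cacna2d3 read 7.63 and 5.42 in control and 2.27 and 1.54 in Eva1 shRNA cells. Its log2 change of -1.91 (standard error 0.27, adjusted p = 0.0078) became -0.37 with 16 units added, and the Eva1 shRNA mean was under 4.71 units. Cacna2d2 had the brightest probe of the family, at 321 and 319 in control and 399 and 473 in Eva1 shRNA cells, and did not pass, with a log2 change of 0.26 and a 95% interval from -0.16 to 0.68. Cacng8, a gamma subunit gene whose protein also serves glutamate receptors, read 56.1 and 57.5 against 93.5 and 88.8 and just missed the threshold (log2 change 0.49, adjusted p = 0.0503). Among the pores the brightest probe was that of Cacna1g, the T-type channel Cav3.1 gene, at 23.1 and 33.3 against 43.5 and 28.0. Its groups overlapped, and its log2 change of 0.12 had a 95% interval from -0.53 to 0.77. The L-type gene Cacna1c read 1.66 and 3.84 against 3.84 and 3.64, and Cacna1d was blank on control array 1.

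**Figure D3:**
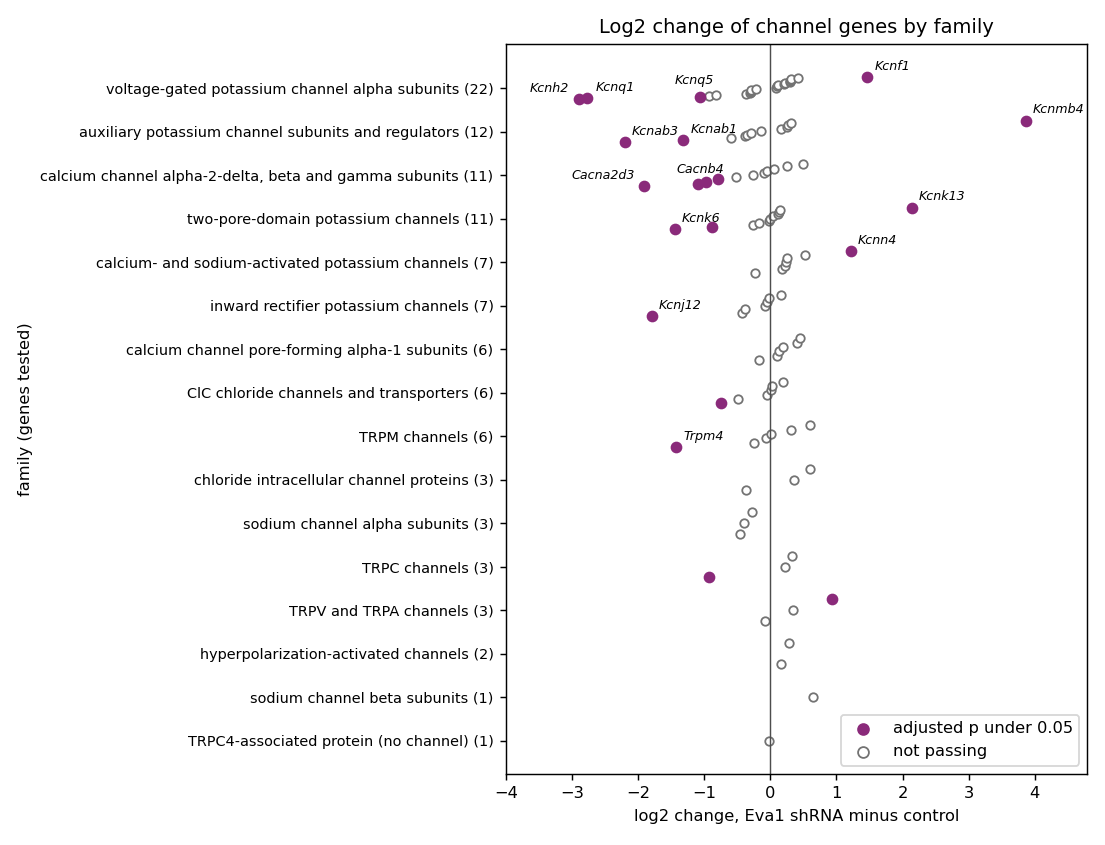
Log2 change (Eva1 shRNA minus control) of the 104 tested channel genes, 1 row per family with the number of genes tested; filled points passed the test and open points did not, and points past a log2 change of 1 that passed are named. All 6 calcium channel alpha-1 genes lie between -0.17 and 0.45, and all 6 were dimmer than the median of all genes. In the accessory calcium channel row 4 of 11 genes (36.4%) passed as falls, against 13.5% of all genes. The difference between these rows was not tested.

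Of 9 sodium channel genes, 5 were blank on at least 1 array, 4 were tested and 0 passed, with 1 lower and 0 higher at an unadjusted p under 0.05 in limma's test. Scn1a and Scn7a, a neuronal and a glial channel gene, were blank on all 4 arrays. Scn3a, an alpha subunit gene of the developing brain, read 21.6 and 24.7 against 24.7 and 16.5 and Scn8a, an adult neuronal one, 14.4 and 16.6 against 18.4 and 12.1, and neither passed (log2 changes of -0.40 and -0.27). Scn4a, the skeletal muscle channel gene, had a log2 change of -0.46 (unadjusted p = 0.0387, adjusted p = 0.104). Scn4b, the tested beta subunit gene, had a log2 change of 0.64 and did not pass (adjusted p = 0.131). Scn10a, a channel gene of pain-sensing neurons, was blank on control array 1, read 4.62 on control array 2 and read 15.4 and 7.15 on the Eva1 shRNA arrays, where 15.4 was the highest value of any channel gene that was blank on some arrays. The pacemaker channel genes Hcn2 and Hcn3 had log2 changes of 0.17 and 0.28, and 0 of these 2 passed (0 also at an unadjusted p under 0.05). Intensities of Hcn2 ranged from 3.84 to 6.26 and those of Hcn3 from 5.30 to 9.49.

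Chloride channels and transporters followed with 9 tested genes, of which 1 fell and 0 rose, and at an unadjusted p under 0.05 there were 1 lower and 2 higher. Clcn3, which encodes a chloride-proton exchanger of endosomes and is known from glioma cells, read 265 and 240 intensity units in control and 164 and 174 in Eva1 shRNA cells. The log2 change was -0.75 (standard error 0.15, adjusted p = 0.0202) and -0.69 with 16 units added. The call was lost without control array 1 (adjusted p = 0.0786), Eva1 shRNA array 1 (0.115) or Eva1 shRNA array 2 (0.0772). Clcn5, Clcn6 and Clcn7, exchangers of endosomes and lysosomes, did not pass, with log2 changes of -0.49, -0.06 and 0.0016. The chloride intracellular channel genes, whose proteins exist in soluble and membrane forms, were led by Clic1. It read 5412 and 5093 in control and 4366 and 5030 in Eva1 shRNA cells, and its log2 change of -0.38 had a 95% interval from -0.77 to 0.02. Clic1 did not pass (adjusted p = 0.139), but did with 16 units added (0.0285) and with eBayes trend (0.0326). Clic4 read 207 and 177 against 380 and 284, a log2 change of 0.60 that missed the threshold (adjusted p = 0.0689) and passed with 16 units added (0.0103), with eBayes trend (0.00507) and with the deposited scaling (0.0386).

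TRP channel genes gave 1 rise and 2 falls among 12 tested. Trpm4, a sodium-permeable channel opened by calcium inside the cell, read 76.9 and 75.7 in control and 31.3 and 34.6 in Eva1 shRNA cells, and all 4 arrays were above the array median. Its log2 change was -1.42 (standard error 0.15, adjusted p = 0.00394), and -1.07 with 16 units added. Trpc1, a channel subunit linked to calcium entry after store release, read 58.6 and 54.0 against 34.0 and 33.2, a log2 change of -0.94 (adjusted p = 0.0101) that missed the threshold without Eva1 shRNA array 1 (0.0665) or 2 (0.0573). Trpv4, a channel opened by swelling and warmth, read 4.74 and 5.42 against 12.8 and 10.1. Its rise of 0.94 (adjusted p = 0.0122) was 0.30 with 16 units added, and the call was lost without control array 1 (0.0573) or Eva1 shRNA array 1 (0.078). Trpm7, a channel joined to a kinase that serves magnesium uptake, had the brightest probe of the TRPM family at 116 and 120 against 146 and 115, and did not pass (log2 change -0.06, 95% interval from -0.46 to 0.34). Trpv2 read 31.9 and 31.3 against 44.1 and 26.7 and did not pass (log2 change -0.08). Trpc4ap, the associated protein gene, read 306 and 248 against 311 and 298, and its log2 change was -0.03 with a 95% interval from -0.44 to 0.38.

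A total of 37 channel genes could not be tested. Of these, 6 were blank on all 4 arrays: Kcnh7, Kcns2, Kcnj6, Scn1a, Scn7a and Trpv6. The other 31 were blank on 1 to 3 arrays, and only 4 of their 71 filled cells were above 4.71 units. Blank on both control arrays but filled on both Eva1 shRNA arrays were Kcnma1, Kcna5, Kcnj16 and Cacna1s, at 1.48 to 2.86 units. The reverse held for Kcnj15 and Kcns3, at 1.53 to 3.04 units in control. Clic6 was blank on control array 1, read 3.47 on control array 2 and 6.17 and 8.65 on the Eva1 shRNA arrays. No fold is given for a blank cell. Control arrays had a value for 116 and 121 of the 141 channel probes and Eva1 shRNA arrays for 127 and 123.

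**Figure D4:**
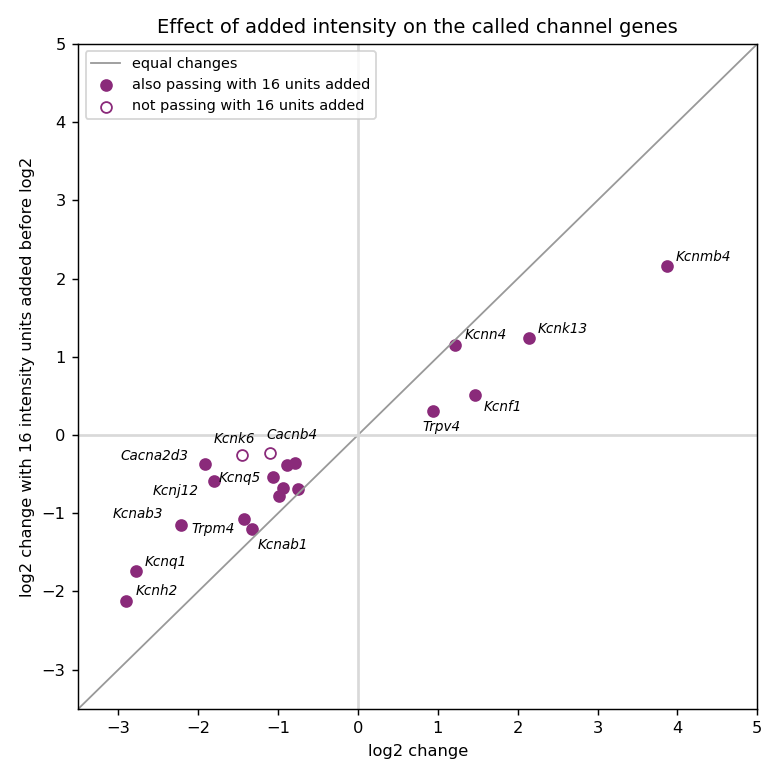
Log2 change of the 20 called channel genes against their log2 change with 16 intensity units added before log2, with the line of equal changes; filled points still passed the test and the 2 open points (Kcnk6 and Cacnb4) did not. Kcnn4 and Kcnab1 lie near the line, while Kcnmb4 drops from 3.87 to 2.16 and Cacna2d3 from -1.91 to -0.37.

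Other ion channel genes outside these families were listed to set the members in context. Of 70 listed genes 65 had a named probe and 48 were tested. Of these, 11 fell, 2 rose and 35 did not pass, with a median log2 change of -0.05. The share passing was 27.1% (22.9% lower, 4.17% higher), against 26.0% of all genes (13.5% lower, 12.5% higher), and the difference was not tested. With the deposited scaling 9 fell, 5 rose and the median was 0.12. Itpr3 encodes a receptor that releases calcium from internal stores and fell by 1.41 on the log2 scale, from 1397 and 1348 to 655 and 497 intensity units. Ano1, a calcium-activated chloride channel gene, fell by 1.76, and Ttyh1, a brain gene of the tweety family, fell by 2.19 (1.01 with 16 units added). Tmem175, a lysosomal potassium channel gene, fell by 1.08, the stretch-activated channel gene Piezo2 by 1.04 and the endosomal channel gene Tpcn1 by 0.99. The size for Piezo2 was unsettled, since its probes differed and the brightest was chosen anew in each fit. The log2 change was -1.85 as the mean of its probes. Leaving out Eva1 shRNA array 1 or 2 brought in another probe, with a log2 change of -2.84 or -2.50. Tpcn1 fell by 0.43 with 16 units added, and its call was lost without Eva1 shRNA array 1 (adjusted p = 0.0649). Adjusted p-values of these 6 lay between 0.00517 and 0.00948. With control array 1, control array 2, Eva1 shRNA array 1 or Eva1 shRNA array 2 left out, 6, 6, 5 and 7 genes fell and 2, 2, 0 and 0 rose.

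Partners and regulators of channels formed a further list. Of 40 genes 25 were tested, of which 6 fell, 2 rose and 17 did not pass. The share passing was 32% (24% lower, 8% higher), against 26.0% of all genes (13.5% lower, 12.5% higher), and the difference was not tested. The median log2 change was -0.27, or -0.08 with the deposited scaling (4 fell and 2 rose). Gem and Rem2 encode small GTPase-like proteins that bind calcium channel beta subunits and reduce calcium current. Gem fell from 960 and 837 to 289 and 293 intensity units (log2 change -1.78, adjusted p = 0.00212), and Rem2 fell by 1.01, or 0.61 with 16 units added, with the call lost without Eva1 shRNA array 2 (adjusted p = 0.0535). The related gene Rrad, named after its value was seen, rose by 0.73, and the call was lost whichever array was left out (adjusted p up to 0.182). Stac2, an adaptor that slows calcium channel inactivation, fell by 1.72, and Sgk1, a kinase that raises the surface number of several channels, fell by 1.14. Camk2d, a calcium-dependent kinase gene, rose by 0.84, and that call too was lost whichever array was left out (adjusted p up to 0.109). Stim1, the sensor that opens store-operated calcium entry, fell by 0.80 and Orai2, a pore of that entry named after its value was seen, by 0.90. The Stim1 call was kept only without control array 2 (adjusted p up to 0.134 otherwise) and the Orai2 call only without Eva1 shRNA array 2 (up to 0.102 otherwise). Filling blank cells also ended the calls of Stim1 (0.0808), Orai2 (0.0612), Camk2d (0.055) and Rrad (0.108), and the deposited scaling that of Stim1 (0.0586). The Rrad call was lost too with the replicate block (0.0569) and over probes (0.0582), and Orai2 fell by 0.54 with 16 units added. Rest, a repressor of neuronal channel genes, read 1.91 and 4.53 against 6.51 and 6.44 and did not pass (log2 change 0.99, adjusted p = 0.125). In the same order of arrays left out, 4, 5, 4 and 3 genes of this list fell and 0, 1, 0 and 0 rose.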

How the data were processed

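Messenger RNA of the 4 samples was measured per the labels on 3D-Gene mouse chips in 1 colour (Cy5). The deposited intensity values are linear and, as they show, were scaled by the authors to a median near 25 on each array; for background correction and blank cells the method is not given in the sources used here. The number of arrays limits the precision. Platform symbols of 16631 probes were updated through RefSeq synonyms (3947 updated), which changed no channel symbol; 2 probes under older names that now match the pattern, Cacna2d4 and Kcnk10, were not members and did not pass. Over complete probes the array medians differed by 0.274 on the log2 scale, so the log2 intensities of these 19199 probes were quantile normalized. The brightest probe of each gene was tested with limma 3.58.1 (lmFit and eBayes, R 4.3.3), two-sided; p-values of 13765 genes were adjusted by Benjamini-Hochberg, and the size of fitted changes was tested on simulated data. Promoter windows came from RefSeq (GRCm38.p6), and figures were drawn with matplotlib 3.10.9.

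By rule, genes named with every array's value were the members that passed with a log2 change of at least 1 and no overlap, and the brightest of each family. Other members were given with array values outside this rule, such as Cacnb3, Trpc1, Trpv4, Kcnab2, Cacng8, Cacna1c, Scn8a and Clic4. Of the brightest, Kcnj9 and Scn4b were named by log2 change alone, and Hcn3 with a range of intensities. Up to 6 genes were named from each related list, and others only after seeing their values. The members and lists were chosen with earlier results of these data known. The alternatives were each array left out, 16 added units, a test per probe, the mean over probes of a gene, eBayes trend, a replicate block, filled blank cells, no dimmest 25% of probes, centring on medians and the deposited scaling.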

Additional observations from a re-analysis of the deposited data

How the results depend on the processing

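The counts of 15 falls and 5 rises among channel genes stayed within 1.5 times under 7 alternatives, though not always for the same genes. Median centring, eBayes trend and the mean of a gene's probes kept 20 of the 20 calls, and a test per probe kept 19. With 16 units added 18 were kept, and with filled blank cells 17. Without the dimmest 25% of probes 15 were kept. There 30.8% of 65 channel genes passed, against 42.5% of all genes. The rises became 9 with the deposited scaling. Leaving out 1 array gave 9 to 15 falls, 4 to 6 rises and 1271 to 2301 calls among all genes, against 3576. Of the 20 calls 12 were kept whichever array was left out, and 13 changes were over 1.5 times smaller with 16 units added. The log2 change of Mpzl2 kept its direction and call under all alternatives run. With the replicate number as a block 5 channel genes were higher and 16 lower, and 20 of 20 calls were kept. The numbers share no stated source, same-numbered deviations correlated at -0.02, and the block is no pairing. Dim signal limits the fold changes, since 74 of 104 genes had both group means at or below 25 units.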
